A study of Mus musculus with 6 samples.

Results

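The genes of TGF-beta, Nodal, activin and BMP signalling were followed across 6 RNA sequencing libraries of partially reprogrammed mouse cells. The members were a list of 45 gene symbols: the ligands, receptors, Smads, antagonists and targets of both branches of the pathway. All 45 were found among the 20325 genes of the files, and 40 of them had enough counts to be tested. The other 5, Lefty1, Lefty2, Bmp2, Bmp4 and Nog, were too low. Of the 40, 5 reached the approximate filter level of 5.04 CPM (counts relative to a total of 1000000) in the libraries of 1 line only: Nodal, Fst and Fstl3 in pre2-2, and Acvr2b and Bmp7 in pre3. Inhba and Tgfb2 reached it in every pre2-2 library but in only 1 pre3 library, and the filter needed 2 libraries. For all of these a difference between the lines is in part a condition of being tested.

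The cells were 2 pre-iPSC lines, pre2-2 and pre3, at passage 10. Pre-iPSCs are cells that stopped part of the way from fibroblast to induced pluripotent stem cell. Both lines were made from OG2 transgenic embryonic fibroblasts, in which regulatory sequence of Pou5f1 drives GFP, on a mixed background of 129SVJ, C57B6 and CBA strains. The 3 treatments of each line were no transfection, a control siRNA, and an siRNA that targets Tet1, an enzyme that oxidises 5-methylcytosine. By the sample labels RNA was taken 48 h after transfection, and by the series description vitamin C was added 16 h after transfection. All 6 libraries, the untransfected ones included, were from cells in LIF-containing medium for mouse embryonic stem cells to which vitamin C (50 µg/ml) was added, so no library shows the pathway without vitamin C. Each combination of line and treatment gave 1 library, so a treatment had 2 libraries, 1 per line, and a line had 3. It is not stated whether the lines were single clones or whether separate cultures gave the 3 libraries of a line, so p-values measure only the spread between these samples, which may be technical. The labels name the source as fibroblasts where the series description names pre-iPSCs, write Tet siRNA in one place and Tet1 siRNA in others, and give 36 h of vitamin C in one place and 32 h in another.

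Library totals were 1868640 to 2582803 expected counts, the estimated reads per gene that the authors deposited. Tet1 fell by 0.67 on the log2 scale with its siRNA against control siRNA (SE 0.13, edgeR adjusted p = 0.0043), from 246 to 154 CPM in pre2-2 and from 251 to 159 CPM in pre3. The labelled cell type was checked against marker genes in TPM (deposited transcript fractions, which are scaled for transcript length, times 1000000). Pou5f1 stood at 1630 to 1826 TPM in pre2-2 and 8677 to 9358 TPM in pre3 and Sox2 at 307 to 410.0 TPM, while Nanog was at 0 to 5.60 TPM, and Lin28a and Esrrb were below 1 TPM in every library. Values are per gene symbol, so reads of the cells' own Pou5f1 or Sox2 and of any introduced copy cannot be told apart. Of 13 fibroblast markers, Lum, a matrix proteoglycan, was listed at 0 in 3 libraries, and Vim took the largest share of the list's sum. Haematopoietic markers summed to 9.43 to 21.6 TPM and muscle markers to 8.22 to 63.0 TPM over the 6 libraries.

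TGF-beta, activin and Nodal ligands bind type II receptors that activate type I receptors, which phosphorylate Smad2 and Smad3; BMPs act through other receptors of the same family and Smad1 and Smad5. Both kinds of Smad pair with Smad4 and bind DNA, and Smad6, Smad7, Skil and Pmepa1 are switched on by the pathway and limit it. In mouse embryonic stem cells BMP acts with LIF through Id genes to hold back differentiation, activin and Nodal keep Lefty genes on, and in fibroblasts TGF-beta drives matrix and contractile genes and holds back reprogramming.

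The promoters of the members were read for letters known from Smad binding, and some of them are printed below. RefSeq windows of 300 bases (250 before to 50 after the gene's start, build GRCm38.p6) were read for 29 of the 45 members, in 37 windows. The letters were searched on both strands. Member windows on 1 chromosome were left out of the search, while the shares over all windows had no such limit. Members without a window here, Smad2, Smad4 and Smad7 among them, may thus have one in RefSeq. The palindrome GTCTAGAC, 2 Smad boxes back to back, was in 0.213% of all 32851 windows and in 1 member window, that of Smad6. GGCGCC, the core to which BMP Smads bind, was in 11.9% of all windows and in 10 of the 37, that of Id2 among them. Of the 10, 2 are overlapping windows of Smad5. GGCGCC holds a CpG, and member windows held more CpG than all windows, as given below. The part of this in the shares was not tested. CAGACA or its complement TGTCTG was in 21.04% of all and in 7 of the 37, and the AP-1 site TGACTCA or TGAGTCA in 5.20% of all and in 1 member window, at Ltbp3. No searched motif lies within another. The windows below are those of Ltbp1, the member called in the comparison with control siRNA (2 starts), of Inhba, the member with the largest line difference, and of Id2 and Smad6, which hold GGCGCC and GTCTAGAC; capitals mark the motif letters. Ltbp1 and Inhba are on the plus strand and Id2 and Smad6 on the minus strand.
Ltbp1, window chr17:75005279-75005578: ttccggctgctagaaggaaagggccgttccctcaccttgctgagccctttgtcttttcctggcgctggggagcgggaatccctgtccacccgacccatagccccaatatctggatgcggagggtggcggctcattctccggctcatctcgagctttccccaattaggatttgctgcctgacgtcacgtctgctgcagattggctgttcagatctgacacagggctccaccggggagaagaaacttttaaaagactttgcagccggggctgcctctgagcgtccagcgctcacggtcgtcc
Ltbp1, window chr17:75178531-75178830: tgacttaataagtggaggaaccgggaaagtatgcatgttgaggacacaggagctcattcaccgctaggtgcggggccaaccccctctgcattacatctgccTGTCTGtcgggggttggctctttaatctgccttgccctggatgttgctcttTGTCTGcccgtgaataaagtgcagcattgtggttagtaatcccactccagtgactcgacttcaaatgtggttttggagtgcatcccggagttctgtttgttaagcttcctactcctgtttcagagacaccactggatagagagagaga
Inhba, window chr13:16011601-16011900: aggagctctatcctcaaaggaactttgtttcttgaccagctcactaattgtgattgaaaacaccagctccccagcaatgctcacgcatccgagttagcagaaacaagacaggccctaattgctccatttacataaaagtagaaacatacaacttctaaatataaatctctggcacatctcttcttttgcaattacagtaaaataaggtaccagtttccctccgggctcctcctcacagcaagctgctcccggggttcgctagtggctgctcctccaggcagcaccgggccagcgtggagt
Id2, window chr12:25096043-25096342: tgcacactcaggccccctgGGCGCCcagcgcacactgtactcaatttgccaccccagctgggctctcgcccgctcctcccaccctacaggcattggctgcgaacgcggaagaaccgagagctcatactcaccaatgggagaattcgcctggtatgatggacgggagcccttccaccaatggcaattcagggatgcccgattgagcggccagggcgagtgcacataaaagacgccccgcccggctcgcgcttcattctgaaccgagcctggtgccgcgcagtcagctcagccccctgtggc
Smad6, window chr9:64022010-64022309: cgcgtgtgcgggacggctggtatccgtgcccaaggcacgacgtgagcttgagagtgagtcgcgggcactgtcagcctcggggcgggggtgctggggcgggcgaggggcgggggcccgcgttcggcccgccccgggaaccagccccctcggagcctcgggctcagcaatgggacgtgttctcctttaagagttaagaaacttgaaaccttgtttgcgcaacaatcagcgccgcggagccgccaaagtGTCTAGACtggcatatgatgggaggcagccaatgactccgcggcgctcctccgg

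The first Ltbp1 window and that of Inhba hold none of the searched letters. In the second Ltbp1 window TGTCTG begins 149 and 98 bases before the start, in Id2 GGCGCC begins 231 bases before it, and in Smad6 GTCTAGAC begins 4 bases before it. A match is only a run of letters, and the absence of one says only that these letters are not in this window. The first Ltbp1 window held 17 CpG dinucleotides, the second 7 and Inhba 7, against a median of 7 over all windows and 23 over the member windows.

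On the length-scaled TPM scale the members spanned a wide range. Fstl1, a secreted glycoprotein of the follistatin family, was the highest of the 45 with a mean of 809 TPM over the 6 libraries, and the BMP target Id1 came next with 355 TPM. Id3 averaged 139.9 TPM, Ltbp1 78.0 TPM, the corepressors Ski and Skil 72.7 and 67.5 TPM, and Smad4 62.0 TPM. At the low end Lefty1 was at 0 to 1.33 TPM, Lefty2 at 0 to 1.67 TPM, Nog at 0 to 0.517 TPM, Bmp2 at 0 to 1.69 TPM and Bmp4 at 0.489 to 3.77 TPM. Smad4, Ski and Skil were thus readily measured, whereas Nodal's own targets and antagonists Lefty1 and Lefty2 were near the detection floor, where 3 counts correspond to 1.16 to 1.61 CPM.

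**Figure D1:**
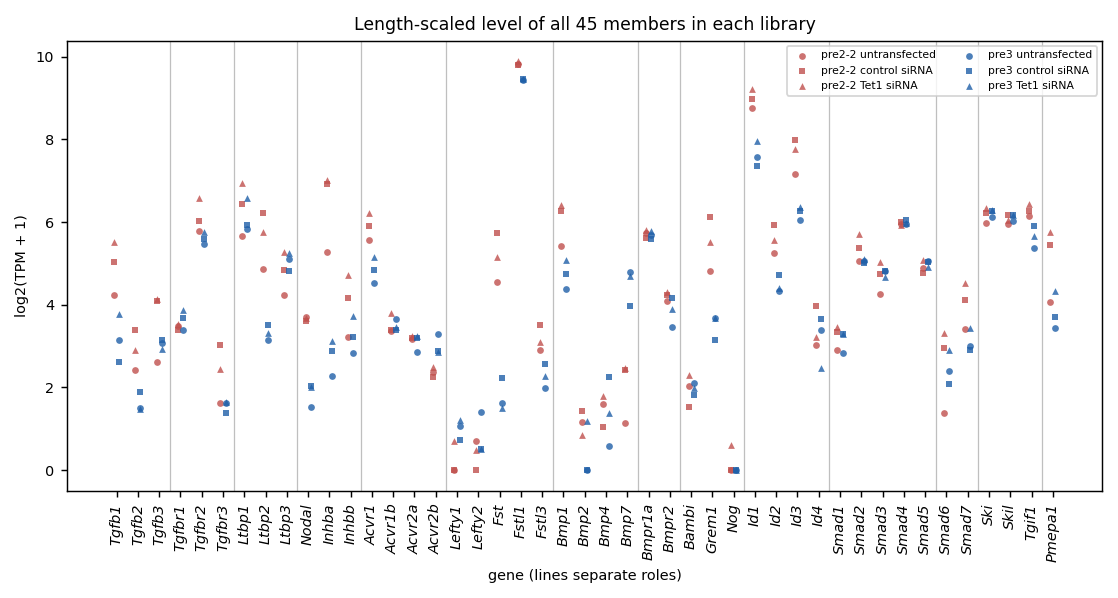
TPM of all 45 members on a log2(TPM + 1) axis, 1 point per library (red pre2-2, blue pre3; circle untransfected, square control siRNA, triangle Tet1 siRNA), with lines between roles. Fstl1 and Id1 stand highest, Lefty1, Lefty2, Bmp2 and Nog lie near 0, and the red points of Inhba, Fst and Ltbp2 lie above the blue ones while those of Bmp7 lie below.

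The line comparison asked how the pathway differs between the 2 pre-iPSC lines, with treatment in the model. Of the 40 tested members, 20 were called with edgeR's quasi-likelihood test (19 lower and 1 higher in pre3), where 30.2% of all 11048 genes tested were called, 15.8% lower and 14.4% higher. The median log2 difference was -0.39 over the members against 0.00 over all genes. Inhba, Fst, Ltbp2, Nodal, Grem1, Id1, Id2 and Id3 were lower in pre3, and Bmp7 was higher. For Inhba, Tgfb2, Fst, Nodal and Bmp7 the call is in part a condition of passing the filter, as given above. With DESeq2 in place of edgeR the calls of Inhbb, Tgfbr2, Tgfbr3, Tgif1 and Smad7 were lost. With the line alone in the model those of Inhbb, Tgfbr2 and Tgfbr3 were lost. The receptor Smads, Smad4, Ski, Skil and the receptors Tgfbr1, Acvr1b, Acvr2a, Acvr2b, Bmpr1a and Bmpr2 were not called. By an order rule chosen after the values were seen, all 3 pre2-2 libraries lay above all 3 pre3 libraries for 15 of the 40 members, where 18.2% of all genes did, and below them for 3 (Acvr2b, Bmp7 and Smad4), where 18.8% did. Among the 15, Nodal, Fst, Fstl3, Inhba and Tgfb2 passed the filter only or mainly through pre2-2. Among the 3, Acvr2b and Bmp7 passed it only through pre3. For these the order, too, is in part a condition of being tested.

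**Figure D2:**
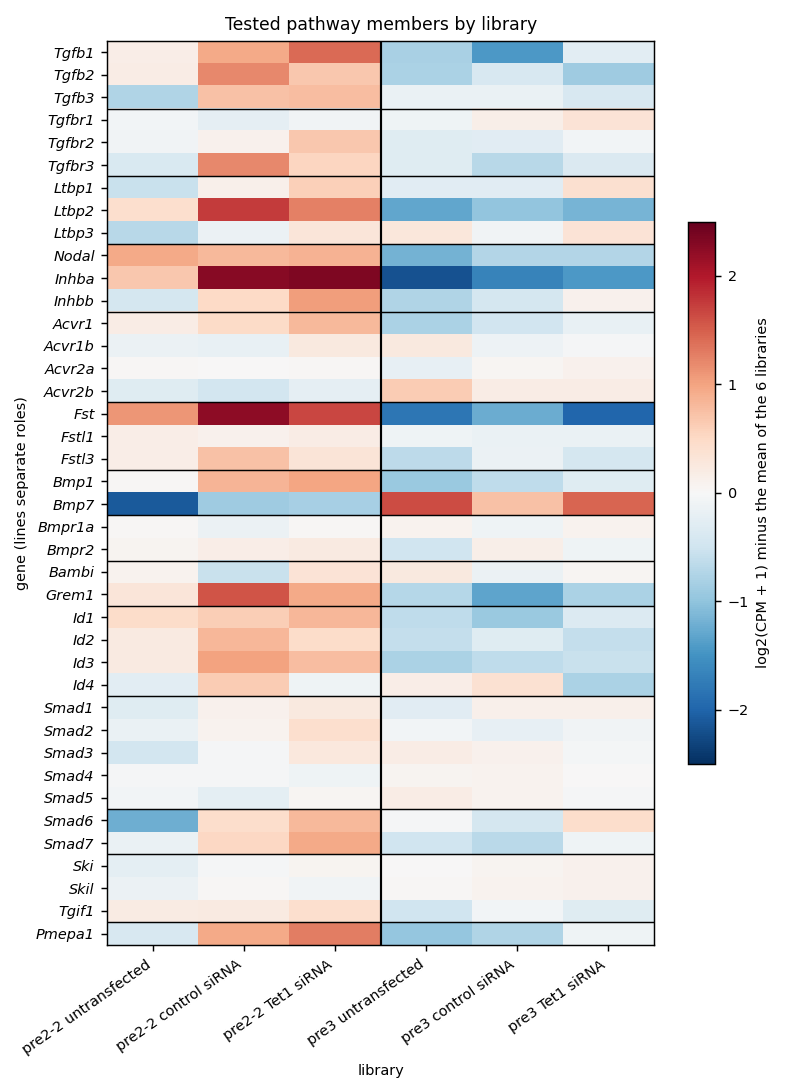
Level of the 40 tested members (rows, grouped by role) in the 6 libraries (columns), as log2(CPM + 1) minus the mean of the gene over the libraries. Inhba, Fst and Ltbp2 are red in the 3 pre2-2 libraries and blue in the 3 pre3 libraries, Bmp7 is the reverse, and Smad4, Ski and Skil are near white throughout.

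Among the ligands of the activin and Nodal branch, Inhba encodes the subunit of activin A. Inhba stood at 28.4, 88.1 and 92.3 CPM in untransfected, control siRNA and Tet1 siRNA cells of pre2-2, and for pre3, in the same order, at 3.08, 4.80 and 5.85 CPM. Each pre2-2 library lay above each pre3 library, and within either line the untransfected library was the lowest. The line difference was -3.89 (log2, SE 0.23, adjusted p = 1.7e-12), which is 0.0676 times the pre2-2 level.

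Nodal, the ligand of early embryonic patterning, was at 12.4, 11.1 and 11.7 CPM in pre2-2 with pre3 at 2.05, 3.20 and 3.19 CPM, each in the order untransfected, control siRNA, Tet1 siRNA. All pre2-2 libraries lay above all pre3 libraries, with a difference of -2.05 (SE 0.40, adjusted p = 0.00029). Lefty1 and Lefty2, which Nodal signalling switches on and which bind and block Nodal, were too low for an order between the lines to be read. They had 5.78 and 9.16 counts over the 6 libraries. Both had non-whole counts, which arise where reads are shared out between similar genes. Lefty1 was at 0, 0 and 0.468 CPM in pre2-2 and 1.03, 0.533 and 1.06 CPM in pre3, and all 6 values lay below the floor of 3 counts. Lefty2 was at 0.777, 0 and 0.468 CPM in pre2-2 and 2.05, 0.533 and 0.532 CPM in pre3, and the untransfected pre3 library alone exceeded its floor of 1.51 CPM. Inhbb, the subunit of activin B, was at 17.5, 34.4 and 51.1 CPM in pre2-2 and 13.8, 17.6 and 26.1 CPM in pre3, so the lines overlapped. Its difference of -0.81 (SE 0.20, adjusted p = 0.0027) was not called without the pre2-2 Tet1 siRNA library (-0.68, adjusted p = 0.0567) or the pre3 Tet1 siRNA library (-0.69, adjusted p = 0.0525).

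Fst encodes follistatin, which binds activins. Its levels were 25.6, 57.7 and 38.4 CPM in pre2-2 and 2.56, 4.26 and 2.13 CPM in pre3. The groups did not overlap, and the difference was -3.73 (SE 0.27, adjusted p = 7.4e-11), close in size to that of Inhba. Fstl1, the most abundant member, was at 1605, 1534 and 1619.6 CPM in pre2-2 and 1319.7, 1268 and 1272 CPM in pre3. Its libraries also separated by line, yet by a far smaller amount (-0.30, SE 0.07, adjusted p = 0.0018), and the call was lost when the control siRNA library of pre2-2 (-0.32, adjusted p = 0.0502) or pre3 (-0.30, adjusted p = 0.1) was left out. Fstl3, with 6.22 to 9.62 CPM in pre2-2 and 3.08 to 4.80 CPM in pre3, was not called (-0.97, adjusted p = 0.0807).

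Acvr1, a type I receptor that serves activins and BMPs, was at 64.9, 78.9 and 99.8 CPM in pre2-2 and 32.3, 40.5 and 49.5 CPM in pre3. The 2 lines did not overlap and differed by -0.99 (SE 0.14, adjusted p = 3.4e-06). Of the other activin and Nodal receptors, Acvr1b was at 14.7 to 20.1 CPM, Acvr2a at 19.0 to 23.9 CPM and Acvr2b at 3.04 to 7.69 CPM over the 6 libraries, with none called.

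Tgfb1, the TGF-beta ligand with the highest TPM, was at 18.3, 31.9 and 44.5 CPM in pre2-2 and 8.72, 5.33 and 13.3 CPM in pre3. Every pre2-2 library exceeded every pre3 library, with a difference of -1.76 (SE 0.25, adjusted p = 4.6e-06). Tgfb2 was at 10.1, 21.3 and 14.5 CPM in pre2-2 and 4.62, 6.40 and 4.26 CPM in pre3 (-1.56, SE 0.32, adjusted p = 0.00059), also without overlap. Tgfb3 was at 8.55 to 26.7 CPM in pre2-2 and 11.2 to 13.3 CPM in pre3 and was not called (-0.61, adjusted p = 0.1).

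Tgfbr2, the type II receptor of TGF-beta, was at 126, 144 and 214 CPM in pre2-2 and 108, 110.3 and 128 CPM in pre3. The untransfected pre2-2 value lay below the highest pre3 value, so the lines overlapped, and the difference of -0.46 (SE 0.12, adjusted p = 0.0036) was not called without either Tet1 siRNA library (-0.31 in both cases, adjusted p = 0.152 and 0.155). Tgfbr3, the coreceptor betaglycan, was at 6.22, 20.7 and 12.6 CPM in pre2-2 and 6.67, 4.80 and 6.38 CPM in pre3. Only its transfected pre2-2 libraries were above pre3, and the difference of -1.06 (SE 0.37, adjusted p = 0.029) fell short without the control siRNA library of pre2-2 (-0.48, adjusted p = 0.565) or pre3 (-0.46, adjusted p = 0.54), and without the pre2-2 Tet1 siRNA library (-1.1, adjusted p = 0.0543). Tgfbr1 was at 25.8 to 38.8 CPM over all libraries and was not called.

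Latent TGF-beta binding proteins hold the ligand in the matrix until it is released. Ltbp2, which differs from the others in binding no TGF-beta itself, was at 91.7, 231 and 165 CPM in pre2-2 and 27.2, 34.1 and 29.8 CPM in pre3. It separated the lines by -2.37 (SE 0.15, adjusted p = 7.7e-12), without overlap. Ltbp1 overlapped between lines (-0.12, adjusted p = 0.473), and Ltbp3 stood at 45.8, 67.8 and 92.3 CPM in pre2-2 and 91.3, 70.4 and 95.2 CPM in pre3 (0.35, adjusted p = 0.0805).

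In the BMP branch Bmp7 was the one member called higher in pre3. This ligand was at 1.17, 4.05 and 4.22 CPM in pre2-2 and 27.7, 14.4 and 24.5 CPM in pre3. All pre3 libraries lay above all pre2-2 libraries, and the difference was 2.86 (7.26-fold, SE 0.36, adjusted p = 1e-06). Bmp1, a metalloprotease that cleaves procollagens and BMP antagonists rather than a BMP ligand, was at 76.9, 137 and 151 CPM in pre2-2 and 39.5, 48.5 and 61.2 CPM in pre3 (-1.27, SE 0.13, adjusted p = 4.1e-08), without overlap. The BMP receptor Bmpr1a was at 142, 126 and 143 CPM in pre2-2 and 147, 129.5 and 149 CPM in pre3 (0.05, adjusted p = 0.772). Bmpr2 was at 18.5 to 30.9 CPM and the pseudoreceptor Bambi at 4.55 to 9.37 CPM, and neither was called.

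Grem1, gremlin, a secreted BMP antagonist, was at 21.8, 53.6 and 34.7 CPM in pre2-2 and 10.3, 6.40 and 9.57 CPM in pre3. The groups stood apart by -2.0 (SE 0.26, adjusted p = 1.8e-06). Noggin (Nog), by contrast, had a count only in the pre2-2 Tet1 siRNA library.

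The Id genes, direct BMP targets whose products block helix-loop-helix factors, were lower in pre3 for 3 of 4 members. Id1 was at 194, 218 and 253 CPM in pre2-2 and 90.3, 73.6 and 112 CPM in pre3, without overlap (-1.27, SE 0.11, adjusted p = 3e-09). Id3 was at 66.8, 115 and 97.9 CPM against 32.8, 36.2 and 38.3 CPM (-1.36, SE 0.15, adjusted p = 6.6e-08), and Id2 at 23.3, 36.4 and 27.6 CPM against 12.8, 16.0 and 12.8 CPM (-1.06, SE 0.21, adjusted p = 0.00033). Id4, at 3.72 to 11.6 CPM over the 6 libraries, was not called. Id1, Id2, Id3 and Grem1 thus lay in the opposite order to Bmp7 between the lines.

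None of the 5 signal-carrying Smads was called in any comparison. Smad4, the common Smad and the highest of them in TPM, was at 100.2, 99.7 and 95.1 CPM in pre2-2 and 107, 108 and 103 CPM in pre3. The pre3 libraries all lay above those of pre2-2, but by a difference of only 0.11 (SE 0.11, adjusted p = 0.518). Line differences of Smad1, Smad2, Smad3 and Smad5 were -0.04, -0.25, 0.16 and 0.17. The corepressor Ski was at 166, 191 and 206 CPM in pre2-2 and 197, 206 and 210.1 CPM in pre3, and Skil, which the pathway induces and which restrains it, at 199, 225 and 206 CPM and 224, 233 and 236 CPM. Both overlapped between lines and neither was called. Tgif1, a homeobox corepressor, was at 55.2 to 64.6 CPM in pre2-2 and 33.9 to 45.8 CPM in pre3 (-0.58, SE 0.15, adjusted p = 0.0048), a call that was lost without the Tet1 siRNA library of pre2-2 (adjusted p = 0.0562) or pre3 (adjusted p = 0.0525).

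Of the 4 genes that the pathway induces and that limit it, Pmepa1 and Smad7 were lower in pre3, while Skil and Smad6 were not called. Pmepa1, a TGF-beta target that sequesters receptor Smads, was at 35.4, 91.6 and 115 CPM in pre2-2 and 23.6, 27.2 and 43.1 CPM in pre3. The untransfected pre2-2 library lay within the pre3 range, and the transfected ones above it, with a line difference of -1.31 (SE 0.17, adjusted p = 1.5e-06). Smad7, an inhibitory Smad, was at 20.98, 34.4 and 46.4 CPM in pre2-2 and 16.4, 14.4 and 21.8 CPM in pre3 (-0.92, SE 0.21, adjusted p = 0.0012), with the same overlap of the untransfected pre2-2 library, and its call was lost with DESeq2 (adjusted p = 0.053). Smad6, the inhibitory Smad of the BMP branch, was at 2.33, 9.62 and 12.6 CPM in pre2-2 and 6.67, 4.80 and 9.57 CPM in pre3 and was not called (-0.14, adjusted p = 0.844).

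Several marker lists were lower in pre3, as were 19 members. The summed level of the fibroblast markers was 2255, 4066 and 4034 TPM in pre2-2 and 1364, 1636 and 1798 TPM in pre3, and 11 of 12 tested were lower in pre3. Interferon response genes summed to 145, 875 and 259 TPM in pre2-2 and 32.7, 167 and 83.6 TPM in pre3 (9 of 10 tested lower), and endothelial markers to 50.3, 39.8 and 50.5 TPM and 15.4, 16.0 and 19.0 TPM (3 of 4 tested lower). Neural markers summed to 119, 159 and 117 TPM and 35.9, 44.6 and 41.9 TPM (1 of 3 tested lower and 2 higher), and trophectoderm markers to 46.0, 81.3 and 46.4 TPM and 21.003, 14.4 and 19.7 TPM (the 1 tested lower). The pluripotency markers summed to 2845 to 3625 TPM in pre2-2 and 9910 to 11014 TPM in pre3, mostly Pou5f1, and of 10 tested 3 were higher and 5 lower in pre3. For Pou5f1 the limit on introduced copies given above holds here too. The part of any of these lists in the line differences of the members was not tested. In these bulk libraries fewer cells of a type and less RNA per cell cannot be told apart.

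**Figure D3:**
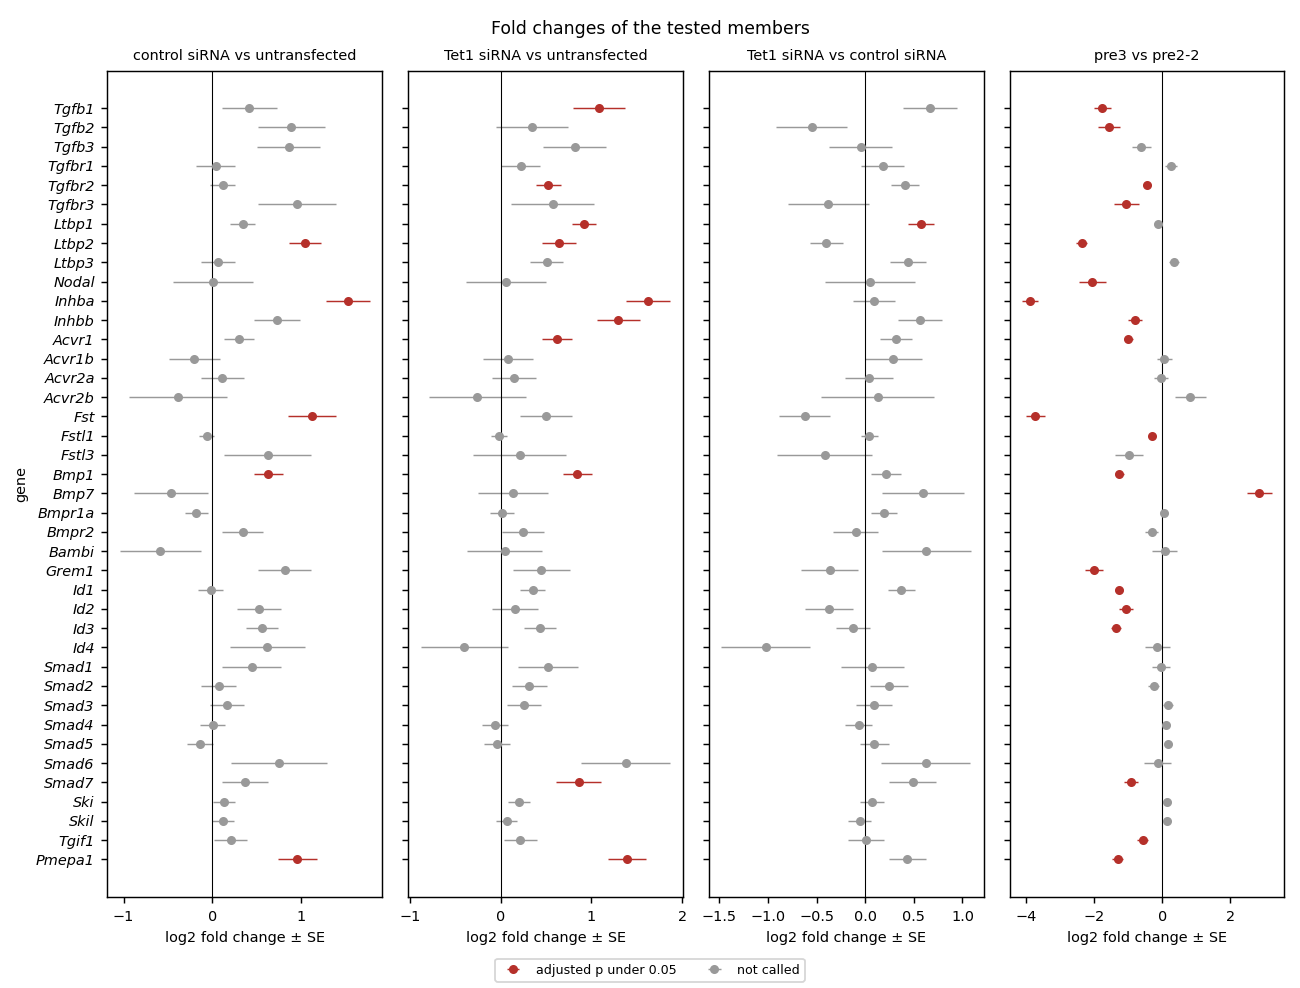
Log2 fold change of each tested member with its SE (bars) in 4 comparisons, from edgeR's fit to all 6 libraries; red marks an adjusted p under 0.05. The first 3 panels hold red points on the positive side only (5, 10 and 1 of 40), and the line panel holds 19 red points below 0 and Bmp7 above it.

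Control siRNA against untransfected cells was the background of transfection for the Tet1 siRNA. Of 40 tested members 5 rose and none fell, where 1.48% of all genes were called, 1.38% as higher and 0.0996% as lower. They were Inhba, Fst, Ltbp2, Pmepa1 and Bmp1. The log2 difference was positive for 32 of the 40 members, with a median of 0.32 against 0.00 over all genes. The 35 members not called ranged from -0.59 to 0.96.

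Inhba rose by 1.53 (2.88-fold, SE 0.25, adjusted p = 0.00042), from 28.4 to 88.1 CPM in pre2-2 and from 3.08 to 4.80 CPM in pre3. Fst rose by 1.12 (SE 0.27, adjusted p = 0.027), from 25.6 to 57.7 CPM and from 2.56 to 4.26 CPM. An activin subunit and the activin-binding follistatin were thus both higher with control siRNA, in both lines, with both pre3 values of each at or under 4.80 CPM. With Tet1 siRNA, Fst lay above its untransfected level in pre2-2 but below it in pre3. Ltbp2 rose by 1.04 (SE 0.18, adjusted p = 0.0011), Pmepa1 by 0.96 (SE 0.22, adjusted p = 0.016) and Bmp1 by 0.63 (SE 0.16, adjusted p = 0.048). The within-line ratios of control siRNA to untransfected were 2.52 and 1.26 for Ltbp2, 2.59 and 1.15 for Pmepa1 and 1.78 and 1.23 for Bmp1 in pre2-2 and pre3, so each ratio was nearer to 1 in pre3.

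All 5 calls rested on pre2-2. Without the pre2-2 untransfected library no member was called, and the values became 0.74 for Inhba, 0.59 for Fst, 0.44 for Ltbp2, 0.35 for Pmepa1 and 0.37 for Bmp1. Without the pre2-2 control siRNA library no member was called either, with 1.09, 1.09, 0.58, 0.50 and 0.41 in the same order. Without the pre3 untransfected library 11 members were called, all higher. No member was called with DESeq2, where Inhba had an adjusted p of 0.243 and Ltbp2 of 0.202, or without the line in the model, where 5 and 0 members had an unadjusted p under 0.05. By an order rule chosen after the values were seen, the untransfected library was the lowest of its line in both lines for 14 members, where 15.6% of all genes had this order, and the highest for none, where 14.2% did.

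Within pre2-2 the control siRNA library was above the untransfected one for 30 of the 40 members, with a median CPM ratio of 1.42. Within pre3 it was above for 22, with a median ratio of 1.03. Over all genes it was above for 50.6% in pre2-2 and 48.7% in pre3, with a median of 1.00 in both. The difference between the lines was tested as an interaction of line with transfection, in which the 2 siRNA libraries of a line count as replicates. No member was called (0.00905% of all genes were, 1 gene), 7 members had an unadjusted p under 0.05 (5.46% of all genes did), and the lowest adjusted p of a member was 0.884. Tgfb3 had the smallest unadjusted p among them, with 8.55, 25.8 and 26.7 CPM in pre2-2 and 13.3, 13.3 and 11.2 CPM in pre3 and an interaction of -1.73 (SE 0.50, edgeR adjusted p = 0.884).

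**Figure D4:**
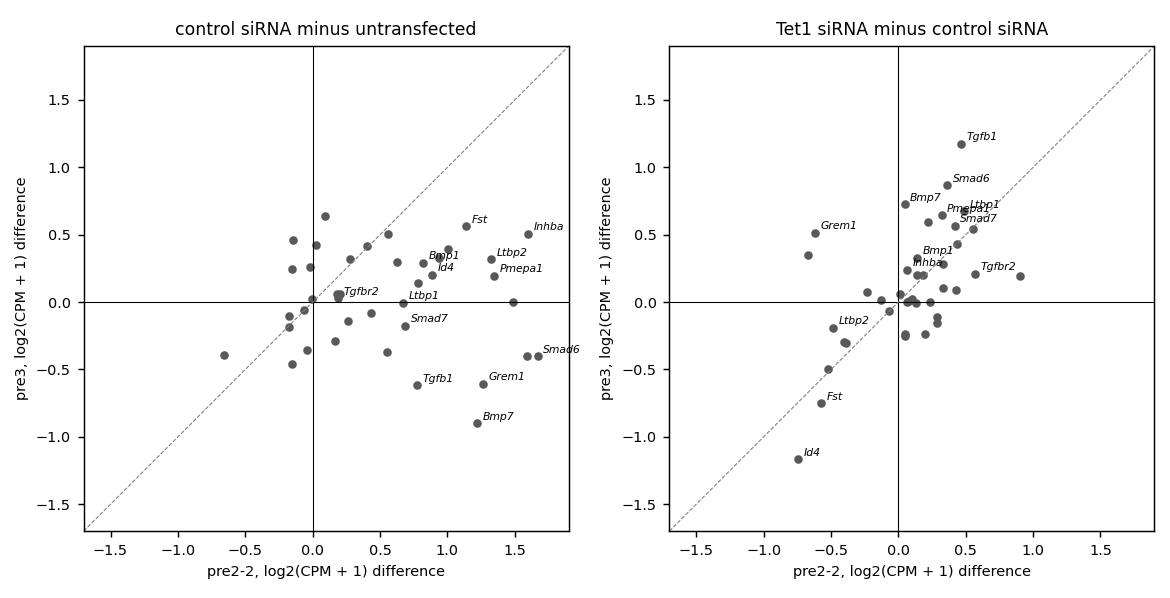
Within-line differences of the 40 tested members in log2(CPM + 1), pre2-2 on the x axis and pre3 on the y axis, for control siRNA minus untransfected (left) and Tet1 siRNA minus control siRNA (right), with a dashed line of equal difference. On the left most points lie right of 0 and below the dashed line (Inhba, Ltbp2, Pmepa1), and on the right Ltbp1, Tgfb1, Smad6, Smad7 and Pmepa1 lie above 0 in both lines.

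Interferon response genes and fibroblast markers moved in the same comparison. All 10 tested interferon response genes rose with control siRNA, their sum going from 145 to 875 TPM in pre2-2 and from 32.7 to 167 TPM in pre3. The fibroblast sum went from 2255 to 4066 TPM and from 1364 to 1636 TPM, and 4 of 12 tested markers rose (Col1a1, Col1a2, Postn and Thy1). Their part in the rise of the members was not tested.

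Tet1 siRNA against control siRNA was the comparison for Tet1 itself. It called 1 of the 40 members, Ltbp1, where 1.58% of all genes were called, 1.15% as higher. Ltbp1, which tethers latent TGF-beta to the matrix, was at 149, 238 and 333 CPM in untransfected, control siRNA and Tet1 siRNA cells of pre2-2 and at 181, 180.2 and 288 CPM in pre3. The Tet1 siRNA library was the highest of its line in both lines, and both Tet1 siRNA libraries lay above all 4 others. Ltbp1 rose by 0.57 (1.49-fold, SE 0.14, adjusted p = 0.027), with ratios of 1.40 in pre2-2 and 1.60 in pre3. The call was lost without the pre2-2 Tet1 siRNA library (0.51, adjusted p = 0.543), without the pre3 control siRNA library (0.36, adjusted p = 0.908), with DESeq2 (adjusted p = 0.503) and without the line in the model (adjusted p = 1.00), and the value stayed positive when each library was left out (0.36 to 0.80).

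The other 39 members were not called and ranged from -1.02 (Id4) to 0.67 (Tgfb1). A log2 difference above 0 was found for 27 of the 40, with a median of 0.09 against 0.00 over all genes. Unadjusted p-values under 0.05 were found for 10 members, against 10.8% of all genes. Those were Tgfb1, Inhbb, Ltbp1, Ltbp3, Pmepa1, Tgfbr2 and Id1 with positive values and Id4, Fst and Ltbp2 with negative ones. Tgfbr2 stood at 0.41 (SE 0.14, adjusted p = 0.195), Id1 at 0.37 (SE 0.14, adjusted p = 0.259), Inhbb at 0.57 (SE 0.23, adjusted p = 0.309), Fst at -0.62 (SE 0.26, adjusted p = 0.352) and Ltbp2 at -0.40 (SE 0.17, adjusted p = 0.372). With only the 4 libraries compared and the line as replicate block, 5 members were called: Id1, Ltbp1, Ltbp3 and Tgfbr2 higher and Ltbp2 lower.

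Nodal (0.05), Skil (-0.06), Smad4 (-0.07), Fstl1 (0.04) and Bmpr1a (0.19) were not called between Tet1 siRNA and control siRNA. Smad7 stood at 0.49 (SE 0.24, adjusted p = 0.467) and Pmepa1 at 0.43 (SE 0.19, adjusted p = 0.395), with ratios above 1 in both lines: 1.35 and 1.51 for Smad7 and 1.25 and 1.58 for Pmepa1. The interaction of line with Tet1 siRNA called no member, and no gene of the 11048 (0%), with 270 genes (2.44%) and 1 member, Smad3, at an unadjusted p under 0.05 in edgeR. In this comparison 9 of 10 interferon response genes fell, their sums being 259 TPM against 875 TPM in pre2-2 and 83.6 TPM against 167 TPM in pre3, and 1 of 12 fibroblast markers rose, Col3a1. Of 10 pluripotency markers tested 3 rose, Dppa5a (1.63, within-line ratios 3.18 and 3.07), the cadherin gene Cdh1 (1.04, ratios 1.84 and 2.41) and Tdgf1, and the sum of the list was 3625 TPM against 2845 TPM in pre2-2 and 11014 TPM against 9910 TPM in pre3. Their part in the difference of Ltbp1 was not tested.

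Against untransfected cells, Tet1 siRNA cells had 10 of 40 members called, all higher, where 6.55% of all genes were called, 4.92% as higher and 1.63% as lower. This comparison shares its untransfected libraries with that of control siRNA, and its Tet1 siRNA libraries with that above. The members were Ltbp1, Inhba, Pmepa1, Inhbb, Bmp1, Acvr1, Tgfb1, Tgfbr2, Smad7 and Ltbp2. The log2 difference was positive for 35 of the 40 members, with a median of 0.33 against 0.01 over all genes.

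Ltbp1 rose by 0.92 (1.89-fold, SE 0.14, adjusted p = 0.00012), Inhba by 1.62 (3.08-fold, SE 0.24, adjusted p = 0.00012) and Pmepa1 by 1.39 (2.63-fold, SE 0.21, adjusted p = 0.00012). The corresponding control siRNA values were 0.34, 1.53 and 0.96, and of the 3 Ltbp1 alone was also called between the 2 siRNAs. Inhbb rose by 1.30 (SE 0.24, adjusted p = 0.0012) and Bmp1 by 0.84 (SE 0.16, adjusted p = 0.0016), beside 0.73 and 0.63 with control siRNA. For both, each line had the same order, lowest untransfected and highest with Tet1 siRNA.

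Tgfb1 rose by 1.09 (SE 0.29, adjusted p = 0.02), the receptor genes Tgfbr2 by 0.52 (SE 0.14, adjusted p = 0.023) and Acvr1 by 0.62 (SE 0.16, adjusted p = 0.022), and Smad7 by 0.86 (SE 0.24, adjusted p = 0.033). Ltbp2 rose by 0.64 (SE 0.19, adjusted p = 0.035), beside 1.04 with control siRNA, and Fst, at 0.50 (adjusted p = 0.35), was not called. Smad6 stood at 1.38 (SE 0.50, adjusted p = 0.103), and 5.42 and 1.44 were its ratios in pre2-2 and pre3. By an order rule chosen after the values were seen, the Tet1 siRNA library was the highest of its line in both lines for 14 of 40 members, where 17.8% of all genes had this order. These were Tgfb1, Tgfbr2, Ltbp1, Ltbp3, Inhba, Inhbb, Acvr1, Bmp1, Bmpr1a, Id1, Smad6, Smad7, Ski and Pmepa1, and for Smad4 alone it was the lowest (16.7% of all genes).

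**Figure D5:**
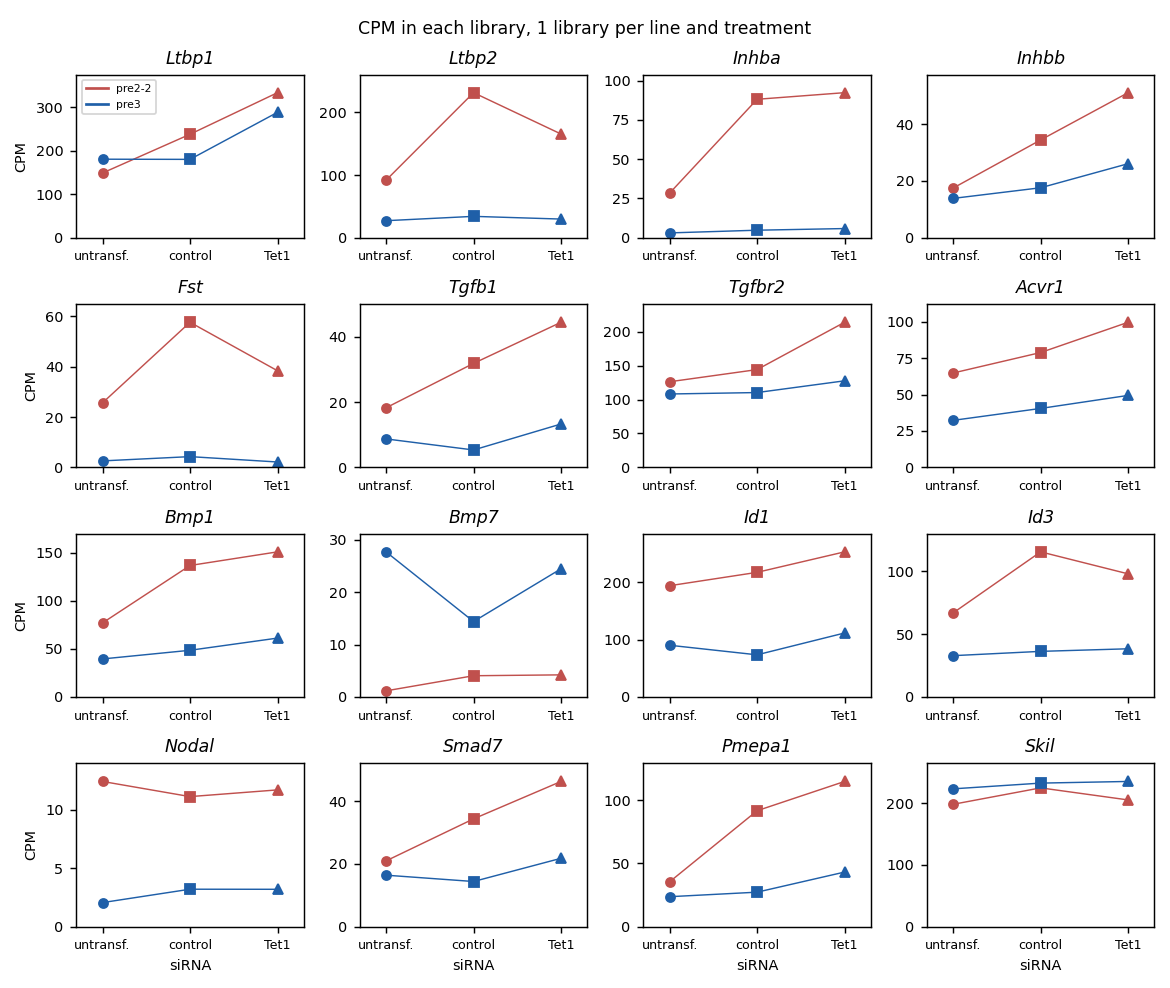
CPM of 16 members in each library, 1 point per line and treatment (red pre2-2, blue pre3; each axis starts at 0). The Tet1 siRNA point of Ltbp1 is the highest of each line (333 and 288 CPM), Ltbp2 and Fst peak with control siRNA in both lines, and the 3 points of Skil lie close together in each line (199 to 225 and 224 to 236 CPM).

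Most of these calls also rested on pre2-2. Without the pre2-2 untransfected library only Ltbp1 was still called, and values were 0.82 for Inhba, 0.77 for Pmepa1, 0.91 for Inhbb, 0.57 for Bmp1, 0.63 for Acvr1, 0.38 for Tgfb1, 0.34 for Tgfbr2, 0.36 for Smad7 and 0.01 for Ltbp2. Without the pre2-2 Tet1 siRNA library Ltbp1 and Pmepa1 were called, Tgfbr2 stood at 0.28, and the values of Inhba, Inhbb, Bmp1, Acvr1, Tgfb1, Smad7 and Ltbp2 lay between 0.53 and 1.49. Tgfbr2 also missed the threshold without the pre3 control siRNA library (0.50, adjusted p = 0.0537), nor Acvr1 without the pre3 Tet1 siRNA library (0.62, adjusted p = 0.0797), and 17 members were called without the pre3 untransfected library. With DESeq2 Inhba, Ltbp1 and Pmepa1 were called. Within pre2-2 the Tet1 siRNA library was above the untransfected one for 36 of 40 members (median ratio 1.48), and within pre3 for 24 (median ratio 1.08). Over all genes it was above for 53.0% in pre2-2 (median ratio 1.02) and 49.4% in pre3 (median ratio 1.00). Of 12 fibroblast markers tested 8 rose in this comparison and of 10 interferon response genes 6, and their part in the rise of the members was not tested.

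A second list held 107 other genes of the pathway, of which 61 were tested. Between Tet1 siRNA and control siRNA 5 rose and 1 fell, where 1.58% of all genes were called, 1.15% as higher. Tdgf1, the Nodal coreceptor, rose by 0.72 (SE 0.11, adjusted p = 0.00054), from 461 to 828 CPM in pre2-2 and from 620.5 to 935 CPM in pre3, and both Tet1 siRNA libraries were the highest of their line. Nbl1, a BMP antagonist, rose by 1.30, Zfp423, a zinc finger cofactor of BMP Smads, by 0.98, the collagen gene Col3a1 by 0.54 and Htra1, a secreted protease, by 0.50. Thbs1, thrombospondin 1, which can release active TGF-beta from its latent form, fell by 0.70 (SE 0.14, adjusted p = 0.0063). These calls were lost without the pre2-2 Tet1 siRNA library for Tdgf1 (0.52), Nbl1 (0.92), Zfp423 (0.54), Htra1 (0.25) and Col3a1 (0.59), and without the pre2-2 control siRNA library for Thbs1 (-0.41), Nbl1 (1.498), Zfp423 (0.72) and Htra1 (0.45). The same held for Col3a1 (0.28), Htra1 (0.51), Nbl1 (1.19) and Zfp423 (1.1) without the pre3 control siRNA library, nor Col3a1 without the pre3 Tet1 siRNA library (0.50). With DESeq2 Tdgf1 alone of the 6 was called, and with limma-voom Nbl1 (adjusted p = 0.0561) and Zfp423 (adjusted p = 0.0574) were not.

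Between control siRNA and untransfected cells 6 of the 61 rose, where 1.48% of all genes were called, 1.38% as higher. Thbs1 rose by 1.65 (SE 0.15, adjusted p = 3.5e-08), from 373 to 1499 CPM in pre2-2 and from 80.5 to 173 CPM in pre3, and its level with Tet1 siRNA lay between, at 891 and 112 CPM. Lrrc32, which holds latent TGF-beta at the cell surface, rose by 1.44, and the TGF-beta targets Tagln, Col1a1 and Acta2 by 1.16, 0.94 and 0.88. Acta2 was at 242 and 635 CPM in pre2-2 but at 63.6 and 60.2 CPM in pre3, so in pre3 it was not higher. Without the pre2-2 untransfected library Acta2 stood at 0.13, Tagln at 0.46 and Lrrc32 at 0.48, none of them called, and without the pre2-2 control siRNA library Acta2 (0.21), Tagln (0.69), Lrrc32 (0.88) and Col1a1 (0.57) were not called. With DESeq2 Thbs1 alone of the genes named here was called.

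With Tet1 siRNA against untransfected cells 19 of the 61 rose and none fell, where 4.92% of all genes were called as higher; 9 of the 19 were among 16 tested targets of TGF-beta and activin. The targets included Cdkn2b (1.01), Col3a1 (0.83), Fn1 (0.74), Acta2 (0.74), Col1a1 (0.70), Tagln (0.67), Ctgf (0.53) and Junb (0.40). The other genes included Rgma (1.65), Nbl1 (1.52), Zfp423 (1.12), Lrrc32 (1.12), Thbs1 (0.96), Mmp14 (0.79), Htra1 (0.53), Furin (0.47) and Tdgf1 (0.39). Of the genes named here, Col3a1 and Fn1 alone were called without the pre2-2 untransfected library, and Tagln (-0.06) and Acta2 (-0.05) were then below 0. Without the pre2-2 Tet1 siRNA library Col1a1, Col3a1 and Thbs1 of them were called. Furin (0.46 and 0.45) and Tdgf1 (0.39 and 0.38) missed the threshold without the control siRNA library of pre2-2 or pre3, Rgma without the pre3 Tet1 siRNA library (1.71), and Junb when any library but the pre3 untransfected one was left out (0.38 to 0.45) or with RLE factors (adjusted p = 0.051) or no filter (adjusted p = 0.0734). With DESeq2 Col3a1 alone of the 17 genes named here was called. Col1a1 and Col3a1 are also on the fibroblast marker list.

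Between the lines 8 of the 61 were higher and 27 lower in pre3, where 14.4% of all genes were higher and 15.8% lower, and of the 16 targets of TGF-beta and activin 1 was higher and 12 lower. Of the 61, 6 reached the filter level of 5.04 CPM in 1 line only, Atoh8 and Bmper among them, and all 6 were called, so for these a difference between the lines is in part a condition of being tested. Atoh8, a BMP target, had 39 counts in pre2-2 and 0 in pre3, at least 11.2-fold lower against a floor of 3 counts over the line. Bmper, a secreted BMP regulator, was at 4.27 to 13.2 CPM in pre2-2 and 0.513 to 1.60 CPM in pre3 (-2.92, SE 0.56, adjusted p = 0.00026), and the contractile gene Tagln at 164 to 458 CPM and 34.4 to 44.8 CPM (-2.96, SE 0.15, adjusted p = 9.7e-14). All 3 kept the 3 pre2-2 libraries above the 3 pre3 libraries, as did the ligands Inhba, Tgfb1 and Tgfb2 among the members. Of these ligands, Inhba and Tgfb2 passed the filter mainly through pre2-2, as given above.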

How the data were processed

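Total RNA was sequenced (TruSeq libraries, Trizol extraction, per the labels' protocols) from 6 libraries, 1 per line and treatment. Per the submitters' processing notes the authors used RSEM 1.1.21 and mm9, and the deposited files give an expected count, RSEM's estimate of the reads from a gene, and a fraction, the share of transcripts, which the authors deposited with a sum of 1 per library. The aligner, filters and strand setting are not given in the sources used here. RSEM shares reads out between similar genes: 25 members had a non-whole count in at least 1 library (tolerance 0.005) and 20 did not. TPM is the fraction times 1000000, and CPM uses TMM-scaled totals of the tested genes.

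Rounded expected counts went into edgeR 4.0.16 in R 4.3.3 (two-sided quasi-likelihood test, filterByExpr with a minimum count of 10, Benjamini-Hochberg over 11048 genes, called under 0.05), with line and treatment as terms over all 6 libraries, and SE as the absolute log2 change over the square root of F. Every adjusted p comes from edgeR unless DESeq2 1.42.0 is named. The fit left 2 residual degrees of freedom per gene, beside a prior worth 23.2 taken from all genes. The spread behind each edgeR p-value, those between the lines included, was thus largely borrowed from other genes. The smallest exact permutation p for 2 libraries against 2, taken without the pairing by line, is 0.333. Pairing by line leaves fewer arrangements, so its smallest p is larger. Floors cover counting error only. The line was kept as a block because same-line libraries deviated together from the treatment means (r 0.667 to 0.772 across genes). The code was tested on simulated data. Alternatives were RLE factors, library totals, no filter, DESeq2, limma-voom 3.58.1, no block, the 4 compared libraries alone, and each library left out. A series-wide TPM table was left out, since it repeats the fractions and 1 of its column names matches no sample.

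Library values were printed for members called between treatments, members with 1 of the 15 largest line differences, the highest member of each role, and Nodal, Lefty1, Lefty2, Id1, Smad7, Skil and Pmepa1. Other pathway genes were named where called between treatments or with 1 of the 5 largest line differences; a few that met this rule are not reported here. Members and lists were chosen with earlier results of these data known. Promoter windows were matched to 29 members by symbol in RefSeq, with member windows on 1 chromosome left out.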

Additional observations from a re-analysis of the deposited data

Results flagged for a closer look

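Outside the pathway, 1 gene was called in the test of whether the lines differ in the response to transfection. Amd2, which encodes a decarboxylase of polyamine synthesis, had an interaction of line with transfection of -8.33 (SE 0.50, edgeR adjusted p = 0.000349), with pre3 minus pre2-2 as the direction. It was at 0.389, 202 and 162 CPM in untransfected, control siRNA and Tet1 siRNA cells of pre2-2 and at 199, 247 and 254 CPM in pre3. Amd1, named after its values were seen, is a close copy, and the counting could split reads between the pair. Amd1 was at 233, 0 and 38.4 CPM in pre2-2 and 36.4, 0 and 0 CPM in pre3. Amd1 was thus highest in the library where Amd2 was near 0. The values of each gene alone are uncertain, and so is the interaction of Amd2. The pair was not tested together.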

How the results depend on the processing

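Scaling by RLE factors or library totals moved the median log2 difference by at most 0.0209 and no called member changed direction with it. Of 175 genes and 1 member called between Tet1 siRNA and control siRNA, the counts were 292 genes without a filter, 24 and 0 with DESeq2, 613 and 5 with the 4 compared libraries and the replicate block, and 34 to 632 genes and 0 to 5 members when each library was left out. Of 164 genes and 5 members between control siRNA and untransfected cells, they were 259 genes without a filter, 32 and 0 with DESeq2, and 27 to 733 and 0 to 11 leaving out each library. Of 724 and 10 between Tet1 siRNA and untransfected cells, they were 87 and 3 with DESeq2, and 172 to 1900 and 1 to 17 leaving out each library. Without the replicate block, that is without the pairing by line, 0 genes and 0 members were called in any of these comparisons with edgeR, where 178, 84 and 353 genes had an unadjusted p under 0.05. Between the lines 3335 genes and 20 members were called, 1429 and 15 with DESeq2, 2061 and 17 with the line alone in the model, and 2152 to 3631 and 17 to 22 leaving out each library. The interaction of line with Tet1 siRNA called 0 genes, and 7 without a filter. Among the single genes tried, 2 turned below 0, all in Tet1 siRNA against untransfected cells without the pre2-2 untransfected library; leaving out each library gave -0.054 to 1.13 for Acta2 and -0.061 to 0.93 for Tagln. The causes were not tested. Depth limits Lefty1, Lefty2, Bmp2, Bmp4 and Nog, whose counts were too low for a test.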
